A study of Arabidopsis thaliana with 4 samples.

Results

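Of the NAC family of plant transcription factors, 1 gene, NAC014 (AT1G33060), could be read by name in these root samples. Members were taken to be genes whose symbol starts with NAC or ANAC and a digit, in the array's probe table or in RefSeq, and which have a probe set assigned to them alone. RefSeq names 81 genes in this way, and 1 of them had such a probe set, out of 13356 genes with a probe set of their own. The other 80 are not analysed here, and any of them may be read by the 8730 of 22746 probe sets that the probe table used here does not list. Counting genes that carry a NAC name only as a synonym raised the RefSeq number to 104 and left the same single gene measured by name. No statement about the family as a whole can therefore be made, and the values below are those of NAC014, of the genes beside it on the chromosome and of genes known as targets of other NAC factors.

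NAC proteins bind DNA through a conserved N-terminal domain and regulate transcription through a variable C-terminal region. They are known from organ boundary formation, xylem and secondary wall formation, leaf senescence and responses to drought, salt and abscisic acid. A subgroup carries a membrane anchor at the C-terminus, is held at a membrane and is cut free under stress, after which the DNA-binding part enters the nucleus. NAC014 is known as a predicted factor of this anchored type. NAC13 and NAC017, of the same type, are known to activate genes that respond to mitochondrial dysfunction.

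Expression was measured on 4 Affymetrix arrays of Arabidopsis thaliana roots, with 2 arrays at normal oxygen and 2 at low oxygen. All plants were 3-week-old Col-0 seedlings without a transgene named in the labels, 5 pooled from a common dish per replicate, which spent 24 hours in liquid medium with 3% sucrose and then 5 hours in foil-covered canisters. Low oxygen canisters were flushed for 20 minutes with gas holding 0.1% oxygen and sealed, and normal oxygen canisters were not sealed, so that the effects of flushing and sealing cannot be told apart from that of oxygen. Values are log2 RMA expression values, with array medians from 6.33 to 6.36 over 22746 probe sets, and the number of arrays limits the precision of each comparison.

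The comparison asked whether the NAC014 transcript differed after 5 hours at low oxygen. At normal oxygen its level was 6.91 in replicate 1 and 6.70 in replicate 2, and at low oxygen it was 7.53 and 7.32. Both low oxygen values lay above both normal oxygen values, with a gap of 0.411 between the nearest arrays of the groups. The gap between replicates was 0.217 at normal oxygen and 0.209 at low oxygen, wider than the median gaps of 0.119 and 0.115 over all probe sets. NAC014 thus rose from 6.81 ± 0.15 (SD, n = 2) to 7.43 ± 0.15, a log2 change of 0.62 (SE 0.13, 95% interval 0.32 to 0.92). This is a 1.54-fold rise with an interval of 1.25-fold to 1.90-fold, and it passed limma's test with Benjamini-Hochberg adjustment over all probe sets (adjusted p = 0.00873, higher on 2 of 2 low oxygen arrays). The call ended in 1 of 12 alternatives, that in which low oxygen replicate 1 was left out (log2 change 0.52). It was kept without normal oxygen replicate 2, where the change was also 0.52, so the size of the change alone did not decide it. With 2 arrays against 2, an exact permutation test over the samples cannot give a two-sided p below 0.333.

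A rise past the threshold was common on these arrays. In limma's test 15.8% of all probe sets were called higher at low oxygen and 17.6% lower, together 33.4%, and in 31.4% both low oxygen arrays lay above both normal oxygen arrays. The 1 NAC gene called higher is to be read against that share. The log2 change of NAC014 exceeded that of 90.4% of all probe sets, whose median change was -0.0018. Among the probe sets called higher, whose median log2 change was 0.72, it exceeded 39.8%, so the rise of NAC014 was below the middle of the called rises. Its SE was larger than that of 72.8% of probe sets. RMA values carry no detection call, so how far NAC014 stood above background was not measured.

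**Figure D1:**
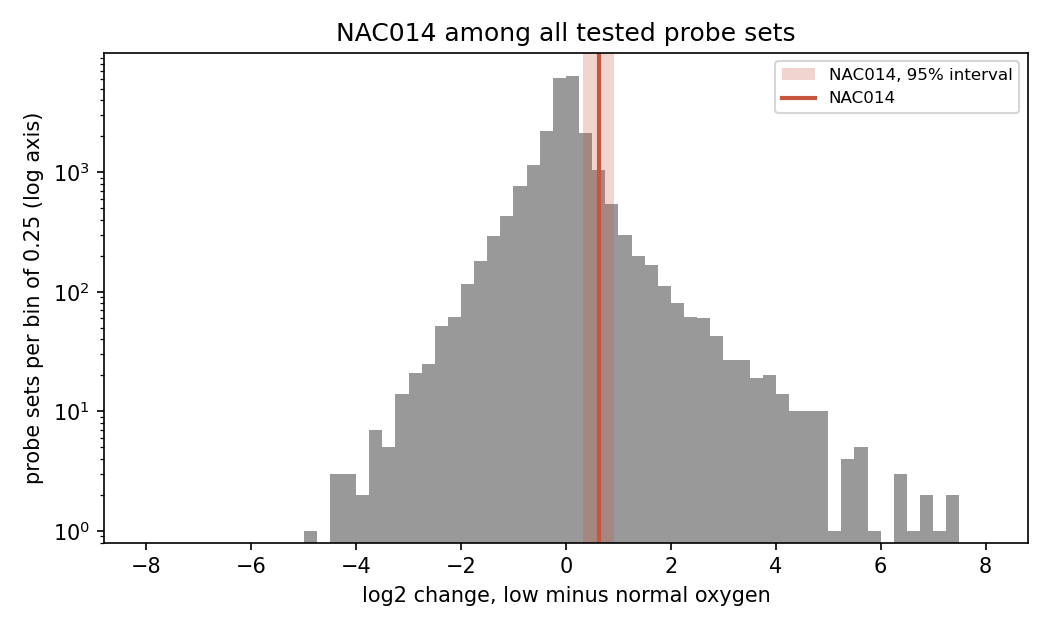
The grey bars count all 22746 tested probe sets by log2 change, low minus normal oxygen, on a log axis, and the red line and band give the NAC014 change of 0.62 with its 95% interval of 0.32 to 0.92. NAC014 lies to the right of the bulk of probe sets and well short of the largest rises.

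**Figure D2:**
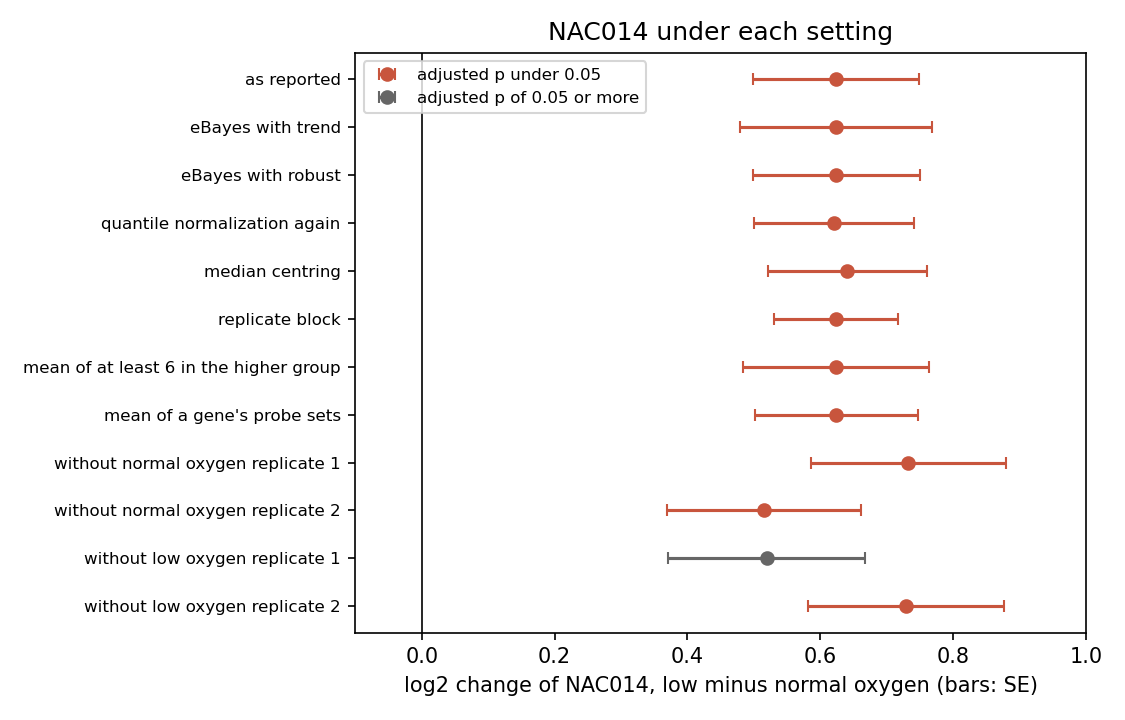
Each point is the log2 change of NAC014 in 1 setting of the test, with its SE as the bar, in red where the adjusted p was under 0.05 and in grey otherwise. The changes run from 0.52 to 0.73, and the grey point is the setting without low oxygen replicate 1.

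The genes next to NAC014 in the TAIR10.1 gene order were examined after the NAC014 values had been seen. Of the 10 nearest protein-coding genes, 5 on each side, 5 were measured by name. Of these 5, 2 rose and 3 did not pass the test, against 15.8% of all probe sets called higher. Both that rose lie next to each other on the same side of NAC014. The immediate neighbour, AT1G33055, encodes a small protein of unknown function and is known as one of the genes that hypoxia induces across cell types. At normal oxygen its level was 9.77 and 10.14, and at low oxygen it was 12.36 and 12.52, so the groups did not overlap. It rose by 2.48 on the log2 scale (SE 0.15, 95% interval 2.14 to 2.83, limma adjusted p = 4.93e-05).

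AT1G33050, the second gene on that side, had levels of 8.22 and 7.97 at normal oxygen and 10.78 and 10.82 at low oxygen. It rose by 2.71 (SE 0.12, 95% interval 2.42 to 2.99, limma adjusted p = 1.75e-05). The intervals of both changes lie wholly above that of NAC014, so the log2 change of NAC014 was smaller than that of either gene, as read by different probes. Neither call was lost in any of 12 alternatives, whereas that of NAC014 was lost in 1.

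On the other side the immediate neighbour, AT1G33070, had levels of 3.41 and 3.51 at normal oxygen and 3.56 and 3.42 at low oxygen. These values overlap and lie near the lower end of the array scale (log2 change 0.03, SE 0.10, limma adjusted p = 0.887). AT1G33080, of the MATE transporter family, was at 6.07 and 6.24 and at 6.33 and 6.00, and the low oxygen values enclosed the normal oxygen values (log2 change 0.01, SE 0.14, limma adjusted p = 0.984). AT1G33030, the fourth gene on the first side, had a change of 0.19 (95% interval -0.04 to 0.41, limma adjusted p = 0.197). Its low oxygen values both lay above its normal oxygen values, though it was not called. The rises measured beside NAC014 were thus all on 1 side of it, with 5 of the 10 nearest genes not measured by name. The position of the probes within these genes is not given in the sources used here.

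**Figure D3:**
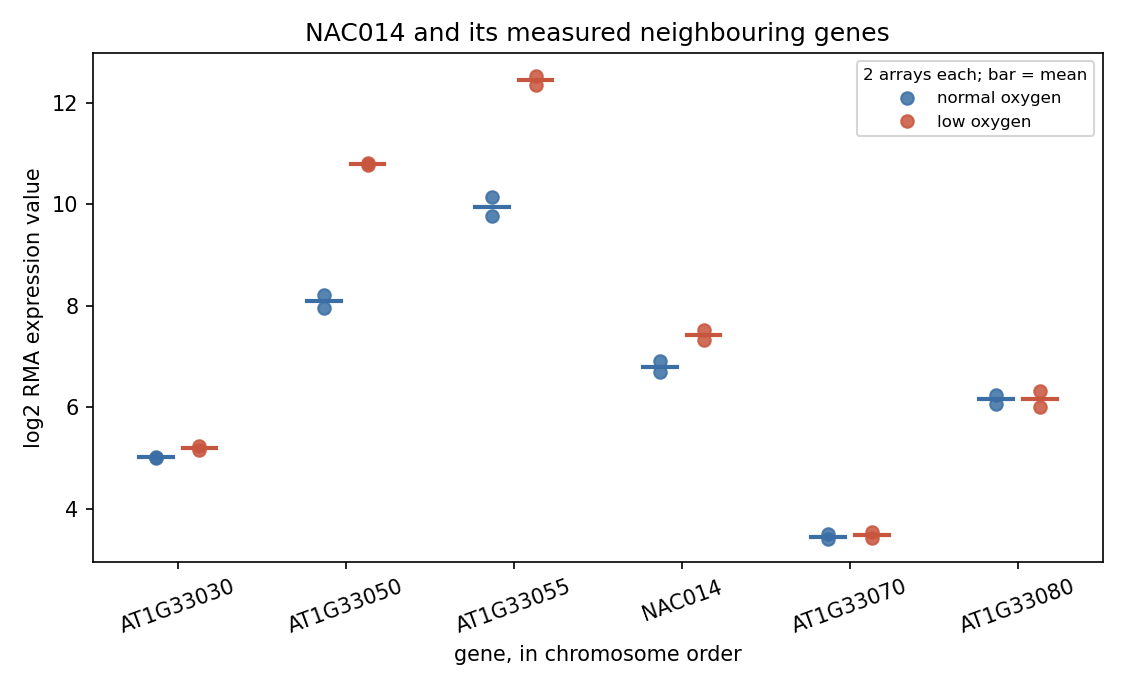
Points are the log2 RMA values of NAC014 and of the 5 neighbouring genes measured by name, in chromosome order, with normal oxygen in blue, low oxygen in red and bars at the group means. AT1G33055 and AT1G33050 rise by 2.48 and 2.71 and NAC014 by 0.62, while the red and blue points of AT1G33070 and AT1G33080 overlap. Heights of different genes come from different probes and are not comparable.

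Of the genes known to respond to mitochondrial dysfunction through anchored NAC factors, 9 of 19 on the list were measured by name. Of these 9, 8 rose in limma's test and 1 did not pass, against 15.8% of all probe sets called higher. For the same 8 both low oxygen arrays lay above both normal oxygen arrays, as they did for 31.4% of all probe sets. The median log2 change of the 9 was 4.16, against -0.0018 over all probe sets. The list was written with earlier results of these data known, some of its members among them, so its count is not independent evidence. NAC13 and NAC017, the factors known to act on these genes, were not analysed here, and whether NAC014 acts on them was not tested.

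AT2G21640, which encodes a protein up-regulated by oxidative stress, had levels of 4.65 and 4.76 at normal oxygen and 9.34 and 9.79 at low oxygen, and its log2 value rose by 4.86 (SE 0.16, adjusted p = 7.12e-06). AT2G32020, an acetyltransferase family gene, was at 6.13 and 6.73 and at 10.86 and 10.86, a change of 4.43 (SE 0.19, limma adjusted p = 1.72e-05). The 2 larger rises of the list were those of AT2G41730 (7.17) and of the mitochondrial small heat shock protein gene AT5G51440 (log2 change 6.30). These 4 genes had the largest changes of the list, and in each the low oxygen arrays differed from the normal oxygen arrays by far more than the replicates did from each other.

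The remaining 4 that rose are named after their values were seen. AT2G04050, of the MATE transporter family, was at 3.94 and 3.65 at normal oxygen and at 7.69 and 8.23 at low oxygen, and so rose by 4.16 (SE 0.19, adjusted p = 2.12e-05). AT2G04070, of the same family, had a change of 2.11 (SE 0.12), and AT5G09570, which encodes a small cysteine-rich mitochondrial protein, a change of 1.52 (SE 0.09). NDB4, an alternative NADH dehydrogenase gene, rose least.

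NDB4 stood at 5.01 and 5.26 at normal oxygen and at 6.07 and 5.72 at low oxygen (log2 change 0.76, SE 0.15, limma adjusted p = 0.00859). That call ended without low oxygen replicate 1 (log2 change 0.58), as did the call of NAC014. The NAC014 change was 0.52 without that array and also 0.52 without normal oxygen replicate 2, where its call was kept. NDB2, a related dehydrogenase gene, was abundant in both groups, at 10.03 and 10.06 and at 10.06 and 9.93, and these values overlap (log2 change -0.05, SE 0.10, adjusted p = 0.799). At normal oxygen 6 of the 9 genes had a mean below 6, the minimum level set in 1 of the alternatives. Signal over background was not measured and may be limited there, so their differences are given on the log2 scale and not as folds.

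**Figure D4:**
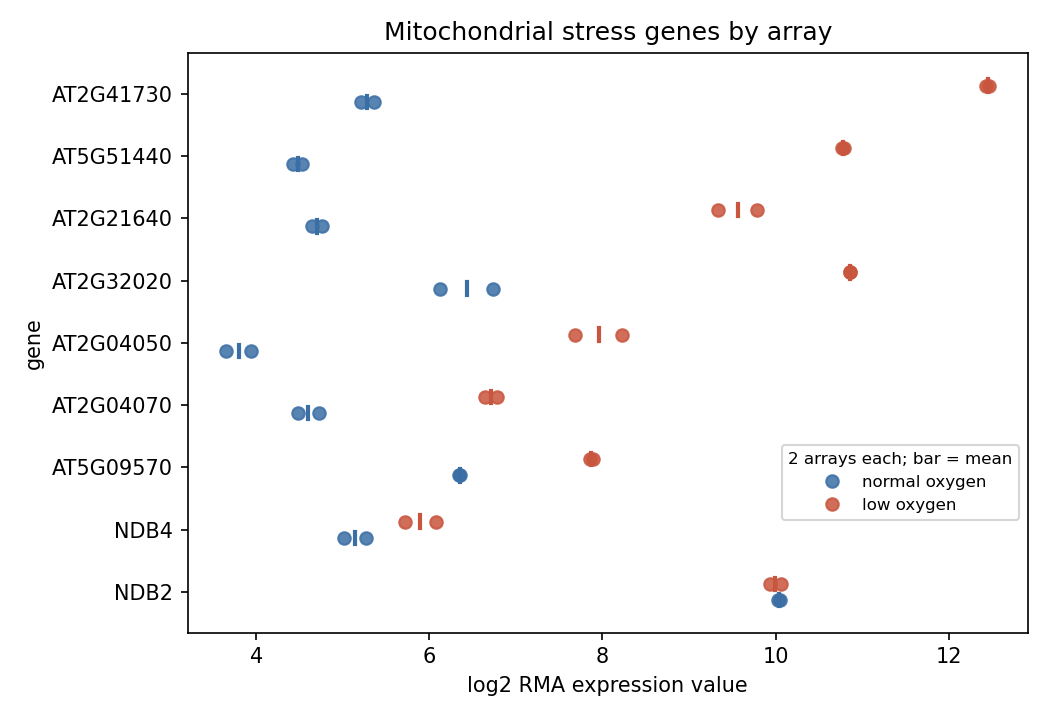
Points are the log2 RMA values of the 9 measured genes known to respond to mitochondrial dysfunction, with normal oxygen in blue, low oxygen in red and bars at the group means, ordered by log2 change. The red points lie right of the blue points for 8 genes, by 0.76 for NDB4 up to 7.17 for AT2G41730, and overlap for NDB2.

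Few genes known as targets of other NAC groups were measured by name. Of 13 genes of senescence and abscisic acid responses, 3 were measured, of which 1 fell and 2 did not pass, against 17.6% of all probe sets called lower. SAG29, a senescence-associated sugar transporter gene, was at 5.59 and 5.65 at normal oxygen and at 5.29 and 5.21 at low oxygen (log2 change -0.37, SE 0.10, limma adjusted p = 0.0277). It lost the call without any one of the 4 arrays, with adjusted p from 0.0554 to 0.135, and with the replicate block (0.0537). NOL, of chlorophyll breakdown, had a change of 0.18 (adjusted p = 0.267) and BSMT1, a methyltransferase gene of methyl salicylate synthesis, a change of 0.08 (adjusted p = 0.611). For NOL and BSMT1 both low oxygen arrays lay above both normal oxygen arrays, as for 31.4% of all probe sets. All 3 genes had levels below 6 on every array.

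Of 18 genes of xylem and secondary wall formation, which VND and NST type NAC factors switch on, only IRX15 was measured by name. This gene of xylan synthesis was at 5.47 and 5.54 at normal oxygen and at 5.19 and 5.17 at low oxygen (log2 change -0.32, SE 0.10, limma adjusted p = 0.0409). Its call ended without any one of the arrays, with adjusted p from 0.0745 to 0.157, and with a trended prior (0.0614), quantile normalization again (0.0504) and the replicate block (0.0680). Of 16 proteasome genes, a group known to be induced by the anchored factors NAC053 and NAC078, 2 were measured and neither passed. For AT2G32730, of the proteasome's regulatory particle, the change was 0.17 (95% interval -0.11 to 0.45, adjusted p = 0.333). RPN12a, of the same particle, had a change of -0.16 (95% interval -0.43 to 0.11, limma adjusted p = 0.364). Both low oxygen arrays lay above both normal oxygen arrays for AT2G32730, and the groups overlapped for RPN12a.

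Some genes used as markers of tissue also differed between low and normal oxygen. Of 15 root markers, 5 were measured and all 5 fell, against 17.6% of all probe sets called lower, with a median log2 change of -3.31. The log2 of their summed level was 14.42 and 14.49 at normal oxygen and 13.02 and 13.04 at low oxygen. The falls of some of them were known when the list was written. The class III peroxidase genes AT1G34510 and AT1G30870 had log2 changes of -4.96 and -3.31, and the root hair expansin genes EXPA18 and EXPA7 changes of -3.53 and -2.50. PYK10, an abundant beta-glucosidase gene of roots, fell least, from 13.54 ± 0.18 (SD, n = 2) to 12.87 ± 0.05 (log2 change -0.67). Of 14 shoot markers, 2 were measured and both rose, against 15.8% of all probe sets called higher. The log2 of the summed level of these 2 was 8.45 and 8.51 at normal oxygen and 9.26 and 9.41 at low oxygen. RCA, the Rubisco activase gene, rose by 1.31 (SE 0.14, adjusted p = 5.89e-04). PSBW, a photosystem II gene, rose by 0.55 (SE 0.12, adjusted p = 0.0124), beside the 0.62 of NAC014. The PSBW call ended without low oxygen replicate 1 (adjusted p = 0.0515) and without low oxygen replicate 2 (adjusted p = 0.0818). The part of tissue makeup in the NAC014 rise was not tested, and in whole roots more cells of a type and more RNA per cell cannot be told apart.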

How the data were processed

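The deposited values are log2 expression values, and the submitters' processing notes name RMA and limma without versions. RMA equalises arrays, which hides any change common to all transcripts. Genes were named through the platform's probe table, updated by gene identifier through RefSeq's table for TAIR10.1. After 64 controls were left out, 22746 probe sets remained, 13513 with 1 gene, 503 with several and 8730 absent from the table and so unnamed. NAC014 had 1 probe set. Several of a gene were reduced to that with the highest mean.

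Low and normal oxygen were compared with limma 3.58.1 under R 4.3.3 (lmFit, eBayes, two-sided, no block, 2 residual and 4.63 prior degrees of freedom), with Benjamini-Hochberg adjustment over all probe sets at 0.05. Simulated data had 200 of 22746 probe sets changed. There 8.0% of probe sets changed by 0.5 and 94.0% of those changed by 1 on the log2 scale were recovered. In the real data 7593 passed, which makes the adjusted p cutoff less strict, so these rates are not those of this comparison. Per the labels, each replicate is its own pool of seedlings.

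The member, the lists and the naming rule were chosen with earlier results of these data known. The rule took members that changed by at least 1 or stand on lists of anchored, stress or senescence NAC genes, and up to 4 genes per direction of each target list. Alternatives varied the prior, normalization, replicate block, minimum level (6), threshold, probe sets per gene and arrays.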

Additional observations from a re-analysis of the deposited data

How the results depend on the processing

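The log2 change of NAC014 was above 0 in all 12 alternatives, but most of them could not have changed its sign. Those that varied the prior, block, minimum level, threshold or probe sets per gene leave it at 0.62. The change could not fall below 0 with 1 array left out, since both low oxygen arrays lay above both normal oxygen arrays. With 1 array left out at a time it lay between 0.52 and 0.73, where the group of 1 array borrows its spread from the other group, and the only one of the 12 to end the call was the one without low oxygen replicate 1 (0.52, adjusted p = 0.0634). The count of NAC genes called higher was accordingly 0 to 1 without each array, and it was 0 when an absolute log2 change of at least 1 was asked as well, since the change of NAC014 is 0.62. With quantile normalization again the change was 0.62 and with median centring 0.64. Both groups number their replicates 1 and 2 with no label on pairing, and the deviations of same-numbered arrays from their group means correlated at 0.024 across probe sets. With the replicate block NAC014 kept its call (0.62, SE 0.09, adjusted p = 0.00994), and 6939 probe sets passed in place of 7593. Over all probe sets the count ran from 5375 to 7001 without each array, was 5062 at an adjusted p under 0.01, and was 2385 with an absolute log2 change of at least 1. The count of mitochondrial dysfunction genes called higher, an alternative added after the data were seen, lay between 7 and 8 in all settings run. Signal over background was not measured. How often changes near 0.5 on the log2 scale are recovered with 2 arrays per group is not known. The simulation changed 200 probe sets, while 7593 passed in the data, so its adjusted p cutoff was stricter.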
